A study of Mus musculus with 8 samples.

Results

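The cells described here are the 3215 cells that the submitters annotated as Endothelial among the 35672 cells of a single-cell RNA-sequencing study of the mouse paraventricular nucleus (PVN) of the hypothalamus. They made up 9.01% of all cells and carried 9.24% of all UMIs (unique molecular identifiers, counts of captured mRNA molecules). The annotation divided them into 3 clusters, Endothelial_1 with 1505 cells, Endothelial_2 with 995 and Endothelial_3 with 715. Members were chosen by this label alone. The defining markers Cldn5, which encodes a tight-junction protein, Flt1, which encodes a receptor for vascular endothelial growth factor, and Pecam1, which encodes an adhesion molecule of endothelial junctions, were not analysed here, so the label was not set against them. Only the deposited numbers of each cell were used: its UMIs, its detected genes, the share of its UMIs from mitochondrial genes, a doublet score, and scores for the S and G2/M phases of the cell cycle.

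Tissue came from C57BL/6 mice of both sexes and was dissociated with papain. The PVN starts the hormonal stress response. In the baseline cohort, mice of 10 weeks were either unstressed controls or had acute restraint stress (ARS) of 15 minutes. In the CMS cohort, mice of 11 weeks were either unstressed controls or had chronic mild stress (CMS) for 21 days followed by ARS. Tissue was taken 5 hours after restraint. Each of the 8 combinations of sex, cohort and exposure gave 1 library, so a comparison of exposures, sexes or cohorts set 4 libraries against the other 4. How many animals went into a library is not stated in the labels, and p-values therefore reflect only how far libraries vary, which may be technical. The controls of the CMS cohort had no stress: the comparison of cohorts is one of experiments and ages, and CMS was applied in only 2 of the 4 CMS-cohort libraries.

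Endothelial cells line blood vessels. In the brain they form the blood-brain barrier: tight junctions seal neighbouring cells, transport across the cell is restricted, and pericytes wrap the capillary wall from outside. The PVN is known for an unusually dense capillary bed. The deposited annotation also held 1432 Pericytes, 401 Vascular cells and 351 Mixed_Endothelial cells, and these are set beside the endothelial cells where the comparison bears on them.

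Libraries held 3523 to 5777 cells and 9924892 to 15760435 UMIs, with medians of 1845 to 2565 UMIs per cell. The male baseline ARS library had the most UMIs per cell. Median mitochondrial shares over all cells of a library were 4.26% to 4.47% in the baseline cohort and 4.50% to 4.79% in the CMS cohort. Any 2 libraries shared 10 to 39 cell barcodes, and 133 of the 3215 endothelial cells had a barcode that was also used in another library. Of the 738 barcodes shared over the 28 pairs of libraries, 4 were endothelial in both.

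Endothelial cells made up 7.75% to 10.9% of the cells of a library. In the baseline cohort they made up 9.30% of cells in the female control library, 8.99% in the male control library, 8.59% in the female ARS library and 9.40% in the male ARS library. In the CMS cohort the shares were 8.24% in the female control library, 8.46% in the male control library, 10.9% in the female CMS and ARS library and 7.75% in the male CMS and ARS library. The highest and the lowest share thus both came from stressed libraries of the CMS cohort, and the groups overlapped in every comparison. The 95% exact (Clopper-Pearson) intervals of those extremes, which cover counting error only, were 10.1% to 11.8% and 6.89% to 8.68%.

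No comparison moved the endothelial share past the threshold. Stressed libraries had 1.05 times the share of control libraries, with a 95% interval of 0.764 to 1.43 (edgeR quasi-likelihood test, adjusted p = 0.944). Female libraries had 1.07 times the share of male libraries (interval 0.782 to 1.47, edgeR adjusted p = 0.960). The CMS cohort had 0.972 times the share of the baseline cohort (interval 0.709 to 1.33, edgeR adjusted p = 0.855). Neither interaction passed: the stress effect differed between the sexes by 1.14-fold (0.582 to 2.22, edgeR adjusted p = 0.871) and between the cohorts by 1.13-fold (0.553 to 2.31, edgeR adjusted p = 0.918). Over the 17 annotated types the same test called 0% for stress, 5.88% for sex, 17.6% for cohort and 0% for both interactions. Shares are relative, so fewer endothelial cells and more cells of other types cannot be told apart.

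**Figure D1:**
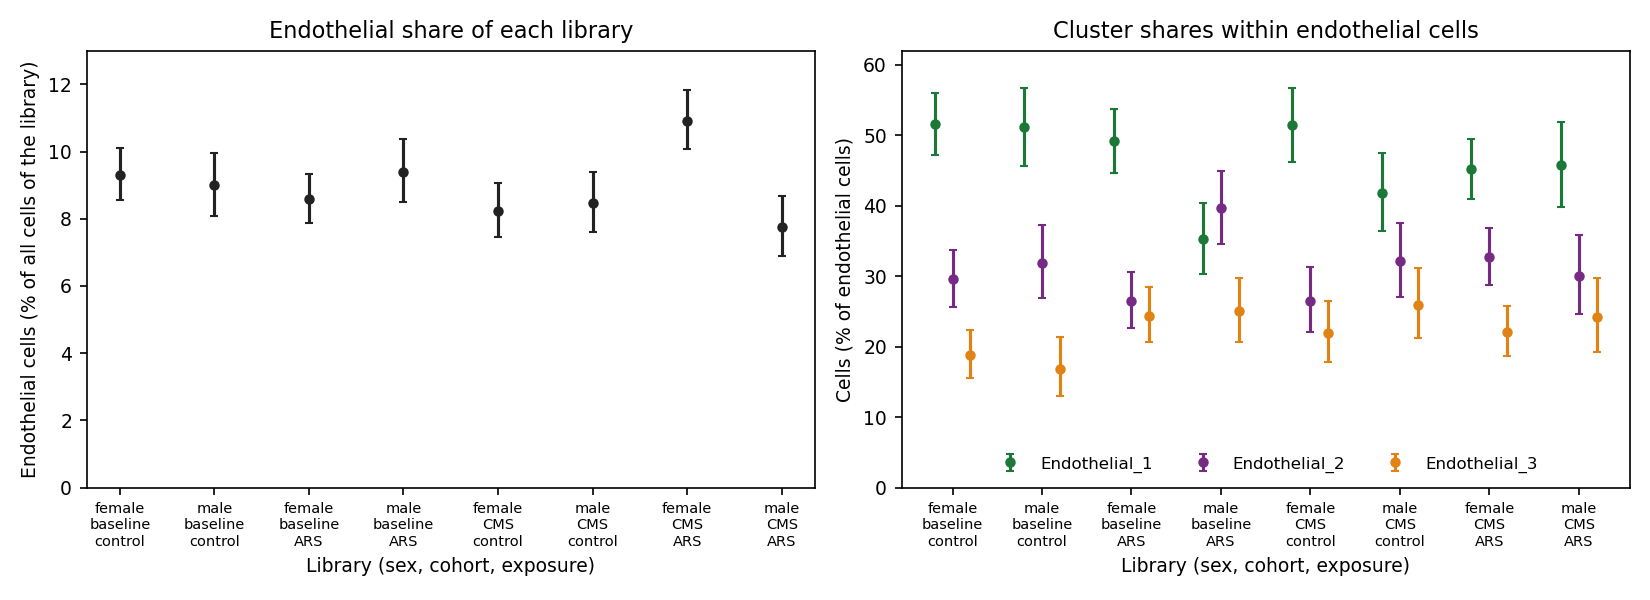
Endothelial cells as a percentage of all cells of each library (left) and each endothelial cluster as a percentage of the endothelial cells of the library (right); points are single libraries and bars are 95% exact binomial intervals, which cover counting error only. The endothelial share lay between 7.75% and 10.9%, and Endothelial_1 was the largest cluster in all libraries but the male baseline ARS library, where it held 35.3%.

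Endothelial_1 was the largest of the 3 clusters in 7 of 8 libraries, and Endothelial_2 was larger than Endothelial_3 in 8 of 8. In the baseline cohort Endothelial_1 held 51.6% of the endothelial cells of the female control library, 51.2% of the male control library, 49.2% of the female ARS library and 35.3% of the male ARS library. In the CMS cohort it held 51.5% and 41.9% in the female and male control libraries, and 45.2% and 45.8% in the female and male CMS and ARS libraries. The male baseline ARS library stood apart: Endothelial_2 was its largest cluster, with 39.7%, against 26.4% to 32.7% elsewhere. That library also had the most UMIs per cell over all cells, and the part of that depth in the cluster shares was not tested. Endothelial_3 was smallest in the male baseline control library (16.9%) and largest in the male CMS control library (25.9%).

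Over the 4 stressed libraries Endothelial_1 held 43.9% ± 5.99 (SD, n = 4) of endothelial cells and over the 4 control libraries 49.0% ± 4.79, and it was lower under stress in 3 of 4 pairs matched for sex and cohort. Endothelial_3 held 23.9% ± 1.28 under stress and 20.9% ± 3.97 in controls, and was higher under stress in 3 of 4 pairs. The groups overlapped, and neither difference passed the test (limma on log2 odds within the type, adjusted p = 0.717 for both clusters). For Endothelial_2 the means were 32.2% ± 5.63 and 30.1% ± 2.62 (limma adjusted p = 0.734).

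Female libraries held 49.4% ± 2.99 Endothelial_1 and male libraries 43.5% ± 6.70, with Endothelial_2 at 28.8% ± 2.99 and 33.5% ± 4.28 (limma adjusted p = 0.490 for both). Between the cohorts the adjusted p-values of limma were 0.916, 0.871 and 0.692 for Endothelial_1, Endothelial_2 and Endothelial_3, and in the interactions 0.940 was the smallest. None of these 15 tests had an unadjusted p under 0.05 in limma, and the edgeR test of the same shares made 0 calls. An exact sign-flip test over the 4 matched pairs, which cannot go below p = 0.13, gave 0.375 or more for each of the 3 clusters. Over the 25 clusters tested in this way limma called 0% for stress and sex, 4% for cohort and 0% for the interactions. As shares of all cells, the clusters gave no call either (edgeR adjusted p of 0.734 or more over 15 tests), where the background over 32 clusters was 3.12% for cohort and 0% in the other comparisons.

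The 3 clusters differed in how much RNA was captured per cell. They were made by the submitters from the expression of these cells, so their differences are described with no test. Endothelial_1 cells had a median of 1499 UMIs, with a middle range (25th to 75th percentile) of 1068 to 1918. Endothelial_2 cells had a median of 3973 (3010 to 5288), and Endothelial_3 cells one of 2678 (1907 to 4460). The order of the medians was the same in 8 of 8 libraries. Library medians of Endothelial_1 lay between 1395 and 1700, those of Endothelial_3 between 2315 and 3315 and those of Endothelial_2 between 3663 and 4319, so that no library of one cluster reached the range of another.

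Within a library, the median of Endothelial_2 was 2.44 to 2.85 times that of Endothelial_1, and the median of Endothelial_3 was 1.61 to 2.22 times it. As a result Endothelial_1, with 46.8% of the endothelial cells, held 25.8% of the endothelial UMIs, while Endothelial_2, with 30.9% of the cells, held 47.7%. Endothelial_3 had near-equal parts of both, 22.2% of cells and 26.5% of UMIs. It also had the widest spread of the 3: its 75th percentile of UMIs was 2.34 times its 25th, against 1.80 times in Endothelial_1 and 1.76 times in Endothelial_2. Cells of 4000 UMIs or more made up 48.8% of Endothelial_2, 31.6% of Endothelial_3 and 0.0664% of Endothelial_1, which had 22.5% of its cells under 1000 UMIs.

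**Figure D2:**
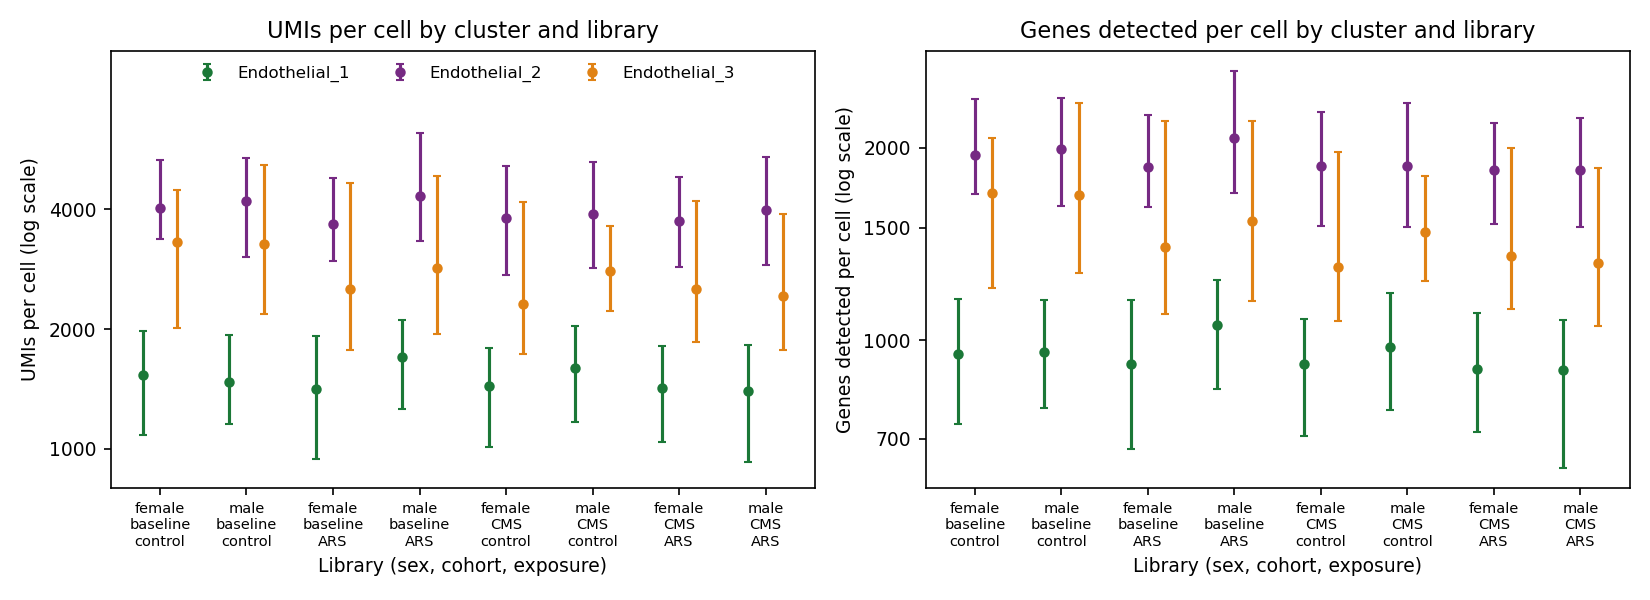
UMIs (left) and detected genes (right) per cell in each endothelial cluster and library, on log axes; points are medians over cells and bars run from the 25th to the 75th percentile of cells. In 8 of 8 libraries the medians rose from Endothelial_1 over Endothelial_3 to Endothelial_2.

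Detected genes followed the UMIs. Median genes per cell were 944 in Endothelial_1, 1919 in Endothelial_2 and 1462 in Endothelial_3, and Endothelial_3 lay between the other two in 8 of 8 libraries. Across the cells of a cluster within a library, UMIs and genes had a Spearman correlation of 0.986 or more, as a description of measures that share the same counts. Among cells with 1000 to 2000 UMIs the medians were 952 ± 14.2 genes (SD over 8 libraries) in Endothelial_1, 913 ± 77.6 in Endothelial_2 (7 libraries with at least 5 such cells) and 1044 ± 36.9 in Endothelial_3. Endothelial_3 cells in that window still had more UMIs, with a median of 1660 against 1519 in Endothelial_1. In a narrower window of 2000 to 2500 UMIs, chosen after the wider ones had been seen, the medians were 1255 ± 26.3, 1283 ± 19.1 and 1287 ± 18.3 genes, so that most of the gap in detected genes was absent at matched depth.

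The mitochondrial share did not follow the UMIs in the same way. Its median was 3.01% in Endothelial_1, 2.75% in Endothelial_2 and 2.39% in Endothelial_3. Endothelial_3 was lower than each of the other clusters in 8 of 8 libraries, by 0.620 ± 0.219 percentage points (SD, n = 8) against Endothelial_1 and by 0.374 ± 0.0956 against Endothelial_2. Endothelial_2 was lower than Endothelial_1 in 6 of 8 libraries, but this order turned among cells of low depth: its pooled median was higher by 1.43 points from 500 to 1000 UMIs (24 Endothelial_2 cells) and by 0.129 from 1000 to 2000 (50 cells). At matched depth Endothelial_3 stayed lower: 2.55% ± 0.208 against 2.92% ± 0.239 in Endothelial_1 among cells with 1000 to 2000 UMIs, and 2.36% ± 0.110 against 2.98% ± 0.203 among those with 2000 to 2500. In the window of 500 to 1000 UMIs, which only 32 Endothelial_3 cells entered, the order was reversed, with pooled medians of 3.48% and 3.21%.

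**Figure D3:**
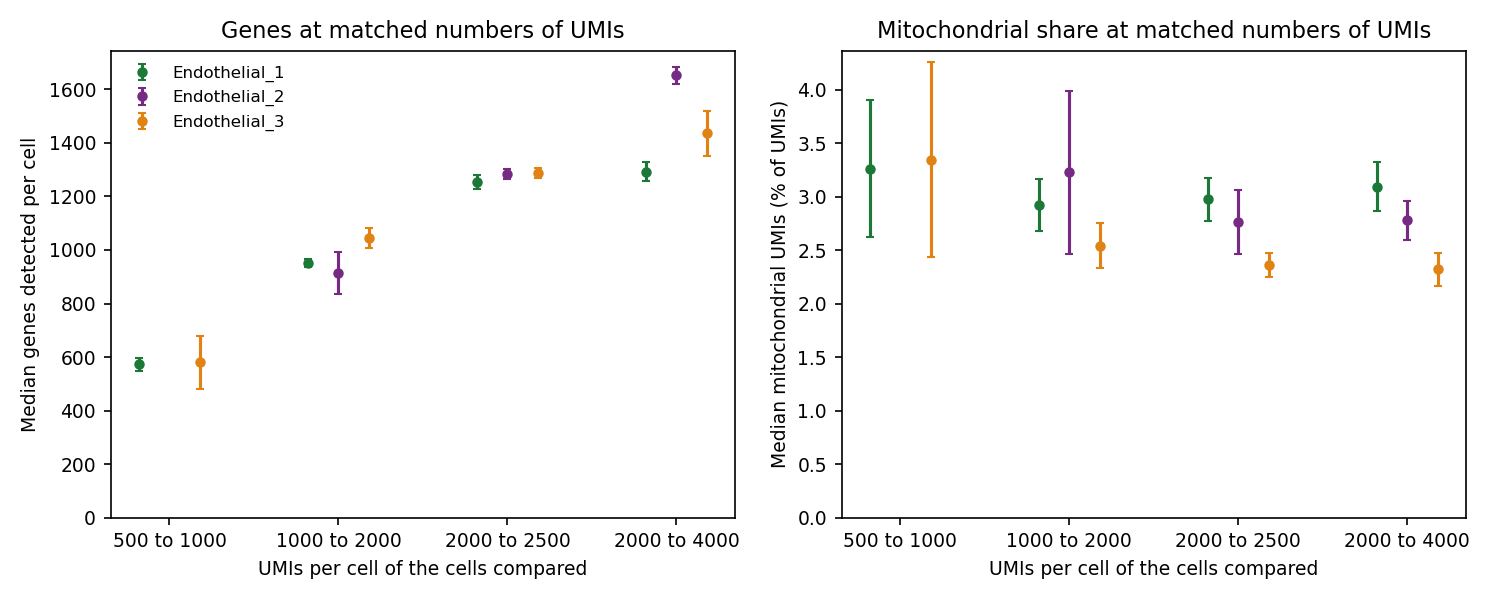
Median genes (left) and median mitochondrial share (right) of cells of each endothelial cluster within windows of UMIs; points are means of library medians and bars are SDs over the libraries with at least 5 such cells (at least 4 libraries; Endothelial_2 had too few cells from 500 to 1000 UMIs). In the windows from 1000 to 4000 UMIs Endothelial_3 had the lowest mitochondrial share, while genes at 2000 to 2500 UMIs lay between 1255 and 1287 in all 3 clusters.

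The doublet score, a deposited value for how likely a droplet held more than 1 cell, was 0 in 53.8% of Endothelial_1 cells, 30.3% of Endothelial_3 cells and 7.34% of Endothelial_2 cells. This order held in 8 of 8 libraries. The score rose with UMIs inside each cluster, with Spearman correlations over cells (median of 8 libraries) of 0.671 in Endothelial_1, 0.312 in Endothelial_2 and 0.572 in Endothelial_3. Among cells with 2000 to 4000 UMIs, Endothelial_3 had the highest scores, with library medians of 1.69 ± 0.101 against 1.42 ± 0.0672 in Endothelial_1 and 1.35 ± 0.0652 in Endothelial_2. Depth still differed there, with median UMIs of 2597, 2288 and 3190 in that order. From 2000 to 2500 UMIs the scores were 1.63 ± 0.172, 1.42 ± 0.105 and 1.40 ± 0.369. From 1000 to 2000 UMIs the pooled median score was 0 in each cluster, so no order can be read there. Means of library medians were 0 in Endothelial_3, 0.320 ± 0.442 in Endothelial_1 and 0.326 ± 0.863 in Endothelial_2. Over all cells the mean score was highest in Endothelial_2 (1.48, against 1.37 in Endothelial_3). Cells with several sources of RNA in each cluster were not removed beyond what the submitters did.

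Cell-cycle scores of endothelial cells stayed in a narrow range. The highest G2/M score of an endothelial cell was 0.185 and the highest S score 0.261. Pericytes reached 1.26 and 0.575, both in the female CMS and ARS library. In the other libraries their highest scores were 0.139 for G2/M and 0.222 for S, below the endothelial maxima. The 95th percentiles were close, with 0.0731 for G2/M and 0.0909 for S in endothelial cells and 0.0742 and 0.0805 in Pericytes. The highest scores of Vascular cells (0.179 and 0.241) and Mixed_Endothelial cells (0.103 and 0.126) were below those of endothelial cells. Median scores of the clusters lay between -0.0133 and -0.0015 for G2/M and between 0.0028 and 0.0118 for S. Endothelial_2 had the highest mean S score in 7 of 8 libraries against Endothelial_3 and in 8 of 8 against Endothelial_1.

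The neighbouring vascular types placed the clusters on a wider scale. Mixed_Endothelial cells had a median of 5110 UMIs and 2418 genes, above every endothelial cluster, and a mean doublet score of 2.59 against 1.12 in Endothelial cells. Their median UMIs were above those of Endothelial_2 in 8 of 8 libraries. Pericytes had 1502 UMIs and 931 genes at the median, close to Endothelial_1, which was above them in UMIs in 3 of 8 libraries. Endothelial_1 nevertheless had a higher mitochondrial share than Pericytes in 8 of 8 libraries, by 0.465 ± 0.177 percentage points. Vascular cells had the highest mitochondrial share of these types, 4.62% at the median. There were 1.94 to 2.56 endothelial cells per pericyte in a library.

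No difference in the depth of endothelial cells between exposures, sexes or cohorts passed the test. Median UMIs per endothelial cell were 2164 and 2120 in the female and male control libraries of the baseline cohort and 2037 and 2755 in its ARS libraries. In the CMS cohort they were 1845 and 2367 in the female and male control libraries and 2074 and 1944 in the CMS and ARS libraries. The male baseline ARS library was the highest, and all groups overlapped. The log2 differences were 0.04 (SE 0.11, limma adjusted p = 0.999) for stressed minus control, -0.17 (SE 0.11, limma adjusted p = 0.497) for female minus male and -0.14 (SE 0.11, limma adjusted p = 0.451) for the CMS minus the baseline cohort. Over 16 types limma called 0% for stress and sex, 18.8% for cohort and 0% for the interactions.

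For genes per cell the adjusted p-values of limma for the endothelial cells were 0.886, 0.459 and 0.466 in the same 3 comparisons, beside 0%, 6.25% and 25% of types called. Among the clusters, Endothelial_3 had the largest depth difference between cohorts when depth was not set relative to the library. Its median genes per cell were 1700 and 1686 in the female and male control libraries and 1401 and 1534 in the ARS libraries of the baseline cohort. They were 1300 and 1475 in the control libraries and 1354 and 1321 in the CMS and ARS libraries of the CMS cohort. The CMS cohort was lower in 4 of 4 matched pairs, the ranges overlapped, and the log2 difference of -0.21 (SE 0.064) did not pass (limma adjusted p = 0.130). Relative to all cells of the library, the log2 difference in genes was only -0.055 in Endothelial_3. It was 0.084 in Endothelial_1 and 0.073 in Endothelial_2 on that scale. Limma called 0% of the 29 clusters for UMIs or genes per cell in any comparison.

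The mitochondrial share of endothelial cells differed between the cohorts. In the baseline cohort the library medians were 2.95% in the female control, 2.85% in the male control, 2.97% in the female ARS and 2.76% in the male ARS library. In the CMS cohort they were 2.64% in the female control, 2.52% in the male control, 2.59% in the female CMS and ARS and 2.64% in the male CMS and ARS library. Every CMS-cohort library thus lay below every baseline library, the unstressed controls included. The means were 2.60% ± 0.0590 and 2.88% ± 0.0944 (SD, n = 4 each), and the difference of -0.288 percentage points (95% interval -0.447 to -0.129) passed the test (limma adjusted p = 0.0435), with 18.8% of the 16 types called.

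This call was a narrow one, and it held in 9 of 18 alternative fits. With the matched pairs of sex and exposure as a block it was lost (limma adjusted p = 0.0740), and of the 8 fits that each left out 1 library it held only without the male baseline ARS library and without the male CMS and ARS library. In the other 6 (both female and both male control libraries, the female baseline ARS and the female CMS and ARS library) the adjusted p of limma was 0.0544 to 0.164, with differences of -0.260 to -0.333 over all 8 fits. The cohorts differed in age as well as in experiment, and these cannot be told apart.

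Endothelial_1 had the largest such difference of the 3 clusters. Its median share was 3.19% ± 0.118 in the baseline and 2.77% ± 0.0993 in the CMS cohort, without overlap, a difference of -0.424 percentage points that passed the test (limma adjusted p = 0.0401; 10.3% of 29 clusters called). The call was lost with the pair block (limma adjusted p = 0.0743) and on leaving out any 1 of the 8 libraries (0.0560 to 0.164). Endothelial_2 had 2.86% ± 0.0831 and 2.61% ± 0.117, again without overlap (-0.247, limma adjusted p = 0.139). Endothelial_3 had 2.41% ± 0.0926 and 2.31% ± 0.0674, with overlap (-0.104, limma adjusted p = 0.261). Each cluster was lower in the CMS cohort in 4 of 4 matched pairs. Whether the clusters differ in this respect was not tested.

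**Figure D4:**
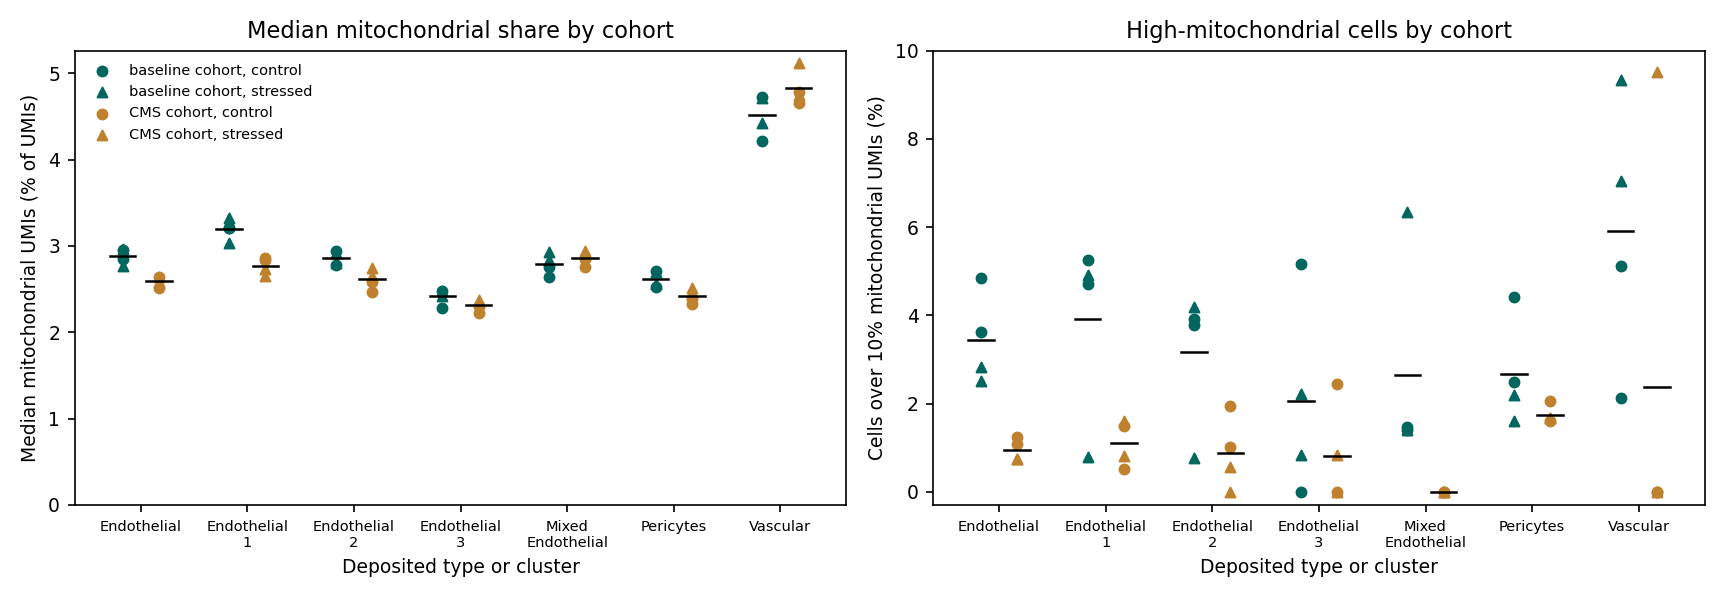
Median mitochondrial share (left) and percentage of cells with more than 10% mitochondrial UMIs (right) in endothelial cells, their clusters and neighbouring vascular types; points are libraries (circles control, triangles stressed), colours are cohorts and black lines are means of 4 libraries. The 4 CMS-cohort libraries lay below the 4 baseline libraries for Endothelial cells in both panels, with 0.733% to 1.25% of cells over 10% against 2.50% to 4.84%.

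The upper tail of the mitochondrial share also differed between the cohorts. Cells with more than 10% mitochondrial UMIs were counted after the medians had been seen. In the baseline cohort they were 25 of 517 endothelial cells in the female control, 12 of 332 in the male control, 14 of 496 in the female ARS and 9 of 360 in the male ARS library, or 4.84%, 3.61%, 2.82% and 2.50%. In the CMS cohort they were 4 of 373 in the female control, 4 of 320 in the male control, 4 of 544 in the female CMS and ARS and 2 of 273 in the male CMS and ARS library, or 1.07%, 1.25%, 0.735% and 0.733%. The cohorts did not overlap. In all, 60 of 1705 baseline cells (3.52%) and 14 of 1510 CMS-cohort cells (0.927%) were past 10%.

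The log2 odds were lower in the CMS cohort by an estimate of -1.74 (SE 0.24, 95% interval -2.29 to -1.18, limma adjusted p = 0.00251). This fit used 1 value per library without weighting for numbers of cells. Each CMS-cohort value rested on 2 to 4 cells past 10%. Counting error entered only through the spread among libraries, so the SE, interval and p-value may be too small. Of the 16 types tested, 6.25% were called, which was Endothelial alone; whether its difference exceeded that of other types was not tested. The call held with the pair block (limma adjusted p = 0.0100) and on leaving out each library in turn (0.00117 to 0.0182). The estimates of the 3 neighbouring vascular types were also below 0 and did not pass. Over all cells of a cohort, the share past 10% was 6.27% in the baseline and 1.54% in the CMS cohort for Vascular cells (log2 odds -1.39, SE 0.70, limma adjusted p = 0.249). For Pericytes it was 2.74% and 1.75% (-0.42, SE 0.28, limma adjusted p = 0.339). For Mixed_Endothelial cells it was 2.55% and 0 of 76 cells (-0.15, SE 0.38, limma adjusted p = 0.700), where 0.5 was added to each count. Among all cells that were not Endothelial, 18.2% and 20.1% were past 10%. By cluster the pooled shares were 4.33% and 1.004% in Endothelial_1, 3.19% and 0.866% in Endothelial_2, and 2.20% and 0.855% in Endothelial_3 in the baseline and the CMS cohort. The libraries of the cohorts overlapped in each cluster. The lowest baseline values were 0.787% in Endothelial_1 (male ARS), 0.763% in Endothelial_2 (female ARS) and 0% in Endothelial_3 (male control). The highest CMS-cohort values were 1.60%, 1.94% and 2.44% in that order. No cluster passed alone (limma adjusted p = 0.0557, 0.0557 and 0.325), where 10.3% of 29 clusters did. On stress, the share was lower in the stressed library of 4 of 4 matched pairs, but the log2 odds difference of -0.62 (SE 0.24) did not pass (limma adjusted p = 0.503; 0% of types and 0% of clusters called). With trended and robust moderation in limma, 1 of 11 alternatives, it passed (adjusted p = 0.000658), while the other 10 gave 0.187 to 0.767.

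The cohort difference was set beside that of the neighbouring vascular types, a comparison added after the values had been seen. Pericytes had median mitochondrial shares of 2.62% ± 0.0934 in the baseline and 2.41% ± 0.0795 in the CMS cohort, without overlap (-0.206, limma adjusted p = 0.132). Mixed_Endothelial cells had 2.79% ± 0.124 and 2.86% ± 0.0796, and Vascular cells 4.52% ± 0.244 and 4.82% ± 0.201. The difference between endothelial cells and another type within each library was compared between cohorts in an exact, two-sided permutation test of 4 against 4 libraries, which cannot go below p = 0.0286. Endothelial cells shifted by -0.360 points relative to Mixed_Endothelial cells and by -0.592 relative to Vascular cells (exact p = 0.0286 each, 0.0429 after Benjamini-Hochberg adjustment over 3 tests). Relative to Pericytes the shift was -0.0822 points (exact p = 0.371, adjusted 0.371). The CMS-cohort medians rested on only 14 to 25 Mixed_Endothelial and 21 to 54 Vascular cells per library. Both of these types had higher means in the CMS cohort, which is part of each shift.

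For stress and sex the difference in the median mitochondrial share did not pass the test. Stressed minus control was -0.0034 percentage points (95% interval -0.162 to 0.156, limma adjusted p = 0.959) and female minus male was 0.0942 (interval -0.0647 to 0.253, limma adjusted p = 0.499). Limma called 0% of types and 0% of clusters in these comparisons and in the interactions.

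The 3 scores gave no endothelial call: 0 of 15 tests for the type and 0 of 45 for the clusters passed in limma, of which 0 and 5 had an unadjusted p under 0.05. The smallest limma adjusted p was 0.138, for a mean doublet score of Endothelial_3 of 1.31 ± 0.0846 in the CMS and 1.42 ± 0.0442 in the baseline cohort, lower in 4 of 4 pairs. Background rates for the doublet score were 6.25% of types in the interaction of sex and stress, 6.9% of clusters for cohort and 3.45% of clusters in the interaction of sex and stress. For the G2/M score limma called 25% of types and 20.7% of clusters for sex, and for the S score 6.25% of types for cohort. All other comparisons of scores had 0%.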

How the data were processed

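Sequencing reads were handled by the authors in Cell Ranger 3.0.2 or 3.1.0 with the mm10 genome, and Seurat 3.1.3 was used for cells, per the submitters' processing notes. The sources used here do not say which library had which Cell Ranger version. The deposited table lists each cell's UMIs and genes as raw counts. The deposited mitochondrial share is a fraction that the authors computed from the UMIs of each cell, as it times the UMIs gave a whole number within 1e-06 in all 35672 cells; it was turned here into percent. Doublet, S and G2/M values are deposited scores; their tools and any cut-offs were not stated. Cells were joined to libraries by the named columns, and 0 were left unmapped. No doublets were removed here.

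Numbers of cells were tested with edgeR 4.0.16 (quasi-likelihood, all cells of the library as its size, no abundance trend, types or clusters of at least 80 cells). Cluster shares within a type were tested with limma 3.58.1 on log2 odds (0.5 added), and per-cell measures with limma on library medians (means for scores) of types or clusters with at least 10 cells in every library. Covariates were the other 2 of sex, exposure and cohort. P-values were adjusted (Benjamini-Hochberg) over all types or clusters of a comparison, with a threshold of 0.05. The edgeR prior for types had 71.9 degrees of freedom for the main effects, so those intervals rest mostly on spread pooled over types. For both interactions the prior was infinite, so their intervals rest wholly on pooled spread. DESeq2 1.42.0 was an alternative. Fits were tested on simulated data, where the set changes were larger than the differences in depth and shares of all cells reported here. That test does not show whether small differences would be found. Features named are Endothelial, its clusters and the 3 neighbouring vascular types. Members, lists and tests were chosen with earlier results of these data known.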

Additional observations from a re-analysis of the deposited data

Results flagged for a closer look

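Values far from the other 3 libraries of their group of 4 by Dixon's 95% criterion were found in 13 of 168 groups tested, and chance flags about 1 in 20 groups. The groups are not independent, as each value entered a group of exposure, of sex and of cohort. The type was also tested beside its clusters, and UMIs beside genes, so 13 flags are not 13 separate observations. The male baseline ARS library accounted for 8 of the 13 flags. Among stressed libraries it had the most UMIs per endothelial cell (a median of 2755), the most UMIs and genes in Endothelial_1 (1700 and 1057) and the most genes in Endothelial_2 (2075). Among baseline libraries it had the most genes per endothelial cell (1498), the highest mean S score of endothelial cells (0.0153), the lowest share of Endothelial_1 among endothelial cells (35.3%) and the lowest mean G2/M score of Endothelial_2 (-0.00419).

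The male CMS control library had the lowest share of Endothelial_1 among control libraries (41.9%, the next being 51.2%) and the lowest median mitochondrial share of Endothelial_2 among male libraries (2.47%). The male CMS and ARS library had the lowest mean doublet score of Endothelial_2 among stressed libraries (1.47, the next being 1.49). That value lay within the range of 1.39 to 1.52 over all 8 libraries. Among female libraries, the CMS control library had the lowest mean S score of endothelial cells (0.00783), and the CMS and ARS library the lowest mean G2/M score of Endothelial_2 (-0.000649).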

How the results depend on the processing

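Over 904 alternative values of 64 results, 819 kept their direction and side of the threshold (counts within 1.5 times, descriptions within 1 SD), and the cause of the other changes was not tested. The endothelial share never passed, but its sign was not fixed: stressed minus control was -0.016 (log2) with TMM factors and -0.064 to 0.14 on leaving out 1 library, female minus male -0.0019 with DESeq2 and -0.028 to 0.17, and the cohort difference 0.018 with cells of at most 10% mitochondrial UMIs, 0.15 with DESeq2, 0.14 with TMM factors and -0.17 to 0.034. The interactions ranged from -0.087 to 0.44 (sex) and -0.10 to 0.43 (cohort). Within endothelial cells, leaving out 1 library gave log2 odds of -0.0032 to 0.28 for Endothelial_2 on stress, -0.24 to 0.050 for Endothelial_3 on sex (0.030 with cells of at least 1000 UMIs), and on cohort -0.22 to 0.10 for Endothelial_1 and -0.24 to 0.045 for Endothelial_2, none past the threshold.

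For stress, log2 UMIs per endothelial cell turned to -0.073 with equal weight to each cluster and -0.020 relative to the library (-0.049 to 0.13 on leaving out 1 library), and log2 genes to -0.051 and -0.0032 (-0.023 to 0.12). For cohort, relative to the library, both turned to 0.053. The mitochondrial difference on stress became 0.0034 with cells of at most 10%, 0.0257 with equal cluster weight and 0.0222 relative to the library (-0.0486 to 0.0321).

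The cohort difference in the mitochondrial share lost its call in cells with 1000 to 2000 UMIs (-0.369, limma adjusted p = 0.0731), in cells of at most 10% (-0.262, 0.0526) and with the pair as replicate block (-0.288, 0.0740); on leaving out 1 library it was -0.333 to -0.260. Clusters called for it fell from 1 to 0 with the block, with means over cells, with cells of at most 10%, and without any 1 library. Clusters called for genes per cell on cohort rose from 0 to 1 (Endothelial_3) with at least 50 cells in every library.

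Between clusters, Endothelial_2 minus Endothelial_1 in median genes was 975 over all cells, and -35, -53, 27 and 355.5 within 500 to 1000, 1000 to 2000, 2000 to 2500 and 2000 to 4000 UMIs. Endothelial_3 minus Endothelial_1 was 518, and 18, 78.5, 27 and 128.5. In mitochondrial percent, Endothelial_2 minus Endothelial_1 was 1.43 and 0.129 in the lowest 2 windows and Endothelial_3 minus Endothelial_1 was 0.267 in the lowest. A cluster had as few as 56 cells in a library, which limits the precision of its shares and medians.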
